A study of Mus musculus with 4 samples.

Results

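The genes described here are 42 cell cycle and proliferation genes, measured in CD8αβ+ intraepithelial lymphocytes (IELs) of the mouse small intestine and in CD8αβ+ splenocytes (SPLs). They comprise 20 genes for entry into and passage through S phase, 15 genes of G2 phase and mitosis, 4 G1 cyclins and their kinases, and 3 inhibitors of cyclin-dependent kinases (CDKs). Members were found by gene name among the probes that are not controls, and 68 of 41174 probes carried one of the 42 names out of 27376 names on the array. Each gene was represented by its probe with the highest mean log2 signal over the 4 arrays, irrespective of any difference between the groups. Of the 68 probes, 57 matched a RefSeq gene by accession, and all 57 carried the same symbol there.

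Both groups were sorted from male wild-type mice, given as 8 to 12 weeks old in the sample labels, the CD8αβ+ IELs from the epithelium of the small intestine and the CD8αβ+ SPLs from the spleen. Each group had 2 samples, each pooled from several mice, and the labels name no treatment. Each sample was measured on its own Agilent 1-color array, in which labeled RNA binds to DNA probes and the brightness of a spot reports the amount of a transcript. Values are normalized log2 levels, that is, the log2 intensity of a probe minus the 75th percentile of its array, so that 0 marks the 75th percentile and a difference of 1 is a factor of 2.

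A cell that leaves quiescence passes a G1 checkpoint at which cyclin D with CDK4 or CDK6, and then cyclin E with CDK2, release the E2F transcription factors from the retinoblastoma protein. E2F factors turn on the genes that copy DNA in S phase, whereas genes of mitosis come on later. The latter are controlled by B-Myb, FOXM1 and the DREAM complex, which recognizes the CHR element of their promoters. CDK inhibitors such as p21 and p27 hold the cycle in check. Resident memory T cells of the gut epithelium are known as long-lived cells that divide little at rest, and naive T cells of the spleen are mostly quiescent. Sorted cells can carry RNA of other cells. The crypts of the intestine hold rapidly dividing epithelial progenitors, and the spleen of the mouse holds dividing erythroid precursors.

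IEL replicate 1 and SPL replicate 2 shared a slide (slide 1), as did IEL replicate 2 and SPL replicate 1 (slide 2), so each slide gives 1 difference between the groups. Between 63.6% and 69.6% of probes were well above background on an array, and no spot was saturated. The closest pair of arrays came from different groups. Over the 42 members the median absolute difference was 0.140 on the log2 scale between IEL replicate 2 and SPL replicate 1, against 0.394 between the IEL arrays and 0.295 between the SPL arrays. Over 18454 genes measured on all arrays the corresponding values were 0.175, 0.468 and 0.229. IEL replicate 2 was nearer to SPL replicate 1 than to IEL replicate 1 for 37 of 42 members, as for 77.8% of 18468 genes tested. Erythroid and B cell markers in IEL replicate 2 were also near their levels in the spleen samples (summed levels of erythroid markers 75.9, against 1.19 in IEL replicate 1 and 100.2 and 116.8 in the SPL arrays). The identity and purity of this sample were not tested, so each mean of the IEL arrays carries that doubt, and values without IEL replicate 2 are given where they change a call. All 10 listed markers of CD8 T cells, among them *Cd3e*, *Cd8a* and *Cd8b1*, were well above background on all 4 arrays. Their mean difference, IEL minus SPL, was above 0 for 6 and below 0 for 4, from -1.13 (*Cd2*) to 0.52 (*Cd3g*).

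**Figure D1:**
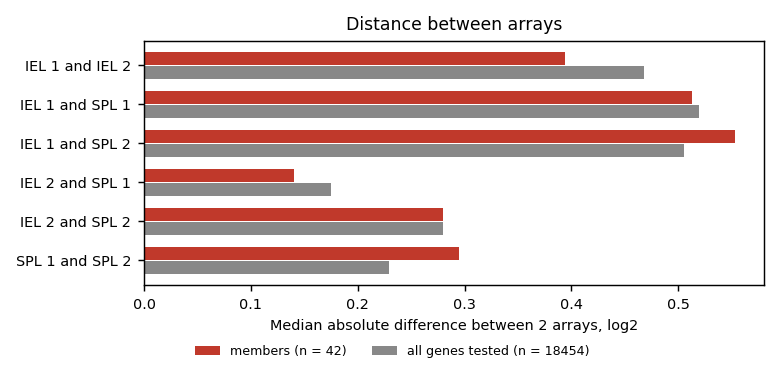
Median absolute difference in normalized log2 level between each pair of arrays, over the 42 members (red bars) and over 18454 genes measured on all arrays (grey bars). The smallest distance, 0.140 for the members, lies between IEL replicate 2 and SPL replicate 1, which are of different groups and share slide 2, and the largest, 0.553, between IEL replicate 1 and SPL replicate 2.

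As a set, the cell cycle genes showed no common direction. The log2 fold change of CD8αβ+ IELs over CD8αβ+ SPLs was above 0 for 23 members and below 0 for 19, with a median of 0.08 against -0.002 over all genes. It was under 0.5 in size for 30 of the 42. No member passed an adjusted p of 0.05 from limma (0 of 42, as for 0% of genes; smallest adjusted p 0.634), and at an unadjusted p under 0.05 limma gave 1 member above 0 (*Cdkn1a*, against 4.89% of genes) and 1 below 0 (*Ccnb1*, against 0.964%). The medians of the 20 S phase genes and of the 15 mitosis genes were 0.03 and -0.01. The median half-width of a member's 95% confidence interval was 0.83 on the log2 scale, with standard errors from 0.23 to 0.84. The arrays measured bulk RNA, in which fewer cycling cells and less RNA of these genes per cell cannot be told apart.

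Both IEL arrays lay above both SPL arrays for 10 members (24.6% of genes) and below both for 10 members (24.5% of genes), and the groups overlapped for the other 22. The mean difference reached 2-fold upwards for *Cdkn1a* and *Rrm1* (6.81% of genes) and downwards for *E2f2* (6.84% of genes). On slide 1, 7 members differed at least 2-fold (25.7% of genes), 5 of them with the higher level in CD8αβ+ IELs. On slide 2 this held for *Cdkn1a* (1 of 42, against 3.66% of genes). The 2 slides gave the same sign for 33 of 42 members (72.5% of genes), and the difference on slide 1 was the larger one for all 42 (80.1% of genes). An exact permutation test of 2 samples against 2 cannot give a two-sided p below 0.33.

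**Figure D2:**
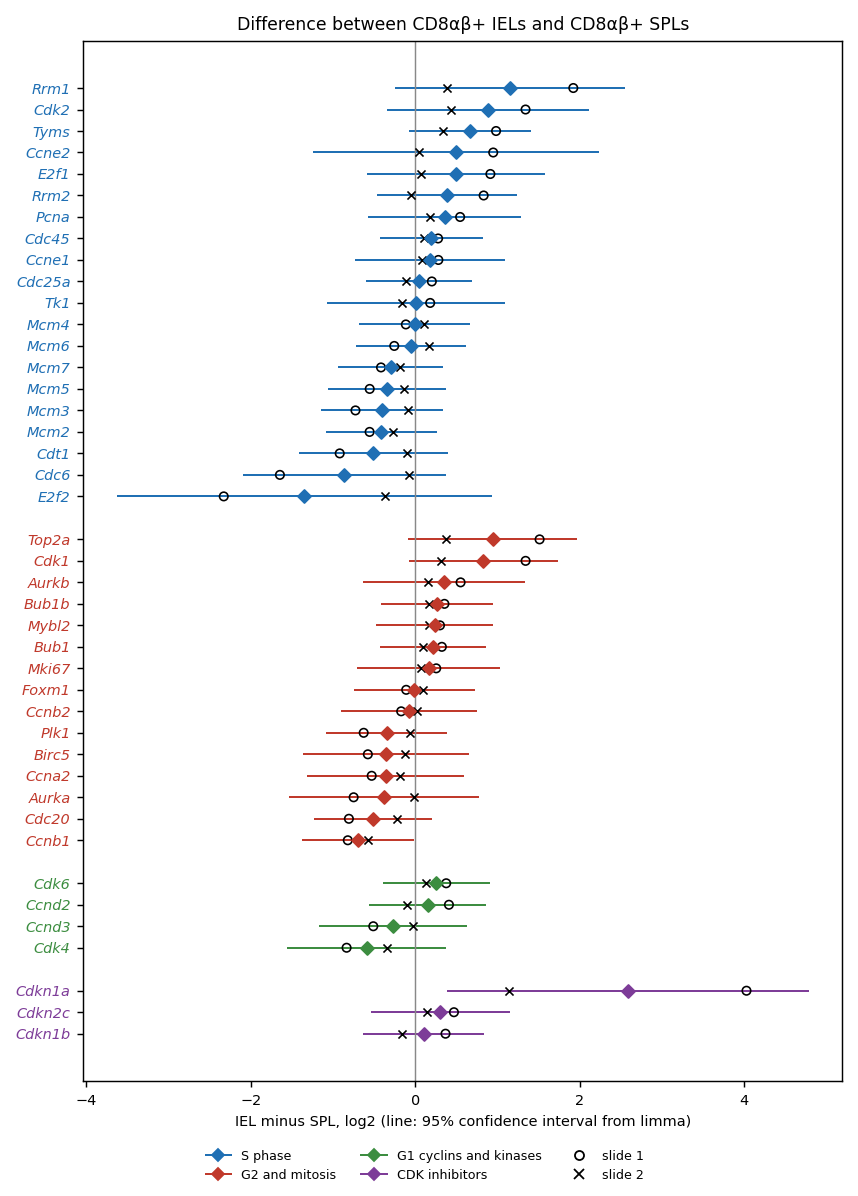
Difference between CD8αβ+ IELs and CD8αβ+ SPLs for the 42 members (rows), in log2 units. Diamonds are the mean differences and lines their 95% confidence intervals from limma, colored by role, while open circles and crosses are the differences within slide 1 and slide 2. The interval lies on 1 side of 0 for *Cdkn1a* and *Ccnb1* and holds 0 for the other 40 members, and the slide 1 value is farther from 0 than the slide 2 value throughout.

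Among the CDK inhibitors, *Cdkn1a* had the largest difference of all 42 members. *Cdkn1a* encodes p21, which binds CDK2 complexes and is induced by p53 and by T cell activation (probe on chromosome 17 of mm9, from 29237377 to 29237436). Its normalized log2 level was 3.08 and 0.87 in IEL replicates 1 and 2, and -0.27 and -0.95 in SPL replicates 1 and 2. Both IEL arrays were above both SPL arrays, and IEL replicate 1 stood apart. The log2 fold change was 2.59 (standard error 0.82, 95% interval 0.39 to 4.78, or 6.01-fold), with an unadjusted p of 0.03 and an adjusted p of 0.634 from limma. It was 4.03 on slide 1 and 1.14 on slide 2. Without IEL replicate 2 it was 3.69. The order of its 4 levels is also that of the summed level of the epithelial markers (32.1, 7.81, 4.27 and 2.30 on the linear scale), and the part of epithelial RNA in this difference was not tested.

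The other inhibitors differed less. *Cdkn1b*, which encodes p27, a keeper of T cell quiescence (chromosome 6 of mm9, from 134875215 to 134875274), had levels of 3.04 and 2.60 in CD8αβ+ IELs and of 2.76 and 2.67 in CD8αβ+ SPLs. The 2 SPL values lay between the 2 IEL values, and the log2 fold change was 0.11 (standard error 0.27). *Cdkn2c* encodes p18, which inhibits CDK4 and CDK6 (chromosome 4, from 109333779 to 109333838). Its levels were 0.02 and -0.56 in CD8αβ+ IELs and -0.70 and -0.45 in CD8αβ+ SPLs, so the groups overlapped, with a log2 fold change of 0.31 (standard error 0.31). On the second *Cdkn2c* probe the groups did not overlap, with 0.29 (standard error 0.27). The slides gave opposite signs for the brightest probe of *Cdkn1b*, with 0.37 on slide 1 and -0.16 on slide 2. Its 2 further probes had log2 fold changes of 0.42 (standard error 0.32) and 0.48 (standard error 0.31), without overlap of the groups and above 0 on both slides.

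The G1 cyclins and kinases gave no shared direction either, with log2 fold changes between -0.59 and 0.26. *Cdk4*, a kinase partner of the D cyclins (chromosome 10, from 126501967 to 126502026), had levels of 1.00 and 1.76 in CD8αβ+ IELs against 2.11 and 1.83 in CD8αβ+ SPLs. Both IEL values were below both SPL values, and the log2 fold change was -0.59 (standard error 0.35, adjusted p 0.634 from limma). *Cdk6*, the other kinase of this step (chromosome 5, from 3529287 to 3529346), had levels of 2.21 and 1.97 against 1.83 and 1.83. Its groups did not overlap either, in the opposite direction, with a log2 fold change of 0.26 (standard error 0.24). Its further probes gave 0.55 (standard error 0.37), with overlap, and 0.26 (standard error 0.25), without. *Ccnd2*, the cyclin D2 gene (chromosome 6, from 127089187 to 127089246), had levels of 5.14 and 4.78 against 4.88 and 4.73. *Ccnd3*, the cyclin D3 gene (chromosome 17, from 47736267 to 47736326), had levels of 3.02 and 3.71 against 3.74 and 3.53. For both cyclins the groups overlapped on the brightest probe, and the log2 fold changes were 0.15 (standard error 0.26) and -0.27 (standard error 0.33). On the further probes of *Ccnd2* the groups did not overlap, with 0.24 (standard error 0.25) and 0.20 (standard error 0.24) and the same sign on both slides.

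The 250 bases before the start of transcription were searched for the letters of elements that are known from genes of the cell cycle, on both strands. They were those of E2F (TTTCCCGC, TTTCGCGC, TTTGCCGC or TTTGGCGC), of the CHR element (TTTGAA or TTCGAA) and the CCAAT box (CCAAT). RefSeq (GRCm38.p6) gave such windows for 36 of 42 members and for 27025 genes in all. E2F letters were in 33.3% of 18 S phase genes, in 8.33% of 12 mitosis genes and in 2.16% of all genes. CHR letters were in 22.2%, 50% and 19.6%, and CCAAT was in 66.7%, 83.3% and 37.5%. The following windows are shown for genes that held these letters and differed in opposite directions in the sorted cells, chosen after their values were seen, and capitals mark the matches. *Mcm5* is at chr8:75109259-75109508 (+), *Cdc6* at chr11:98907901-98908150 (+), *Rrm1* at chr7:102441445-102441694 (+), *Top2a* at chr11:99024190-99024439 (-), *Cdk1* at chr10:69352913-69353162 (-) and *Cdc20* at chr4:118437344-118437593 (-).
Mcm5: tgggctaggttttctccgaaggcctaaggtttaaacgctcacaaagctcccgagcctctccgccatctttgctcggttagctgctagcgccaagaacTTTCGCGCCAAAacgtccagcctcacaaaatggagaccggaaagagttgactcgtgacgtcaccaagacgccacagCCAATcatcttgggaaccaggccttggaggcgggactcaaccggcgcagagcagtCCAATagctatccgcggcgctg
Cdc6: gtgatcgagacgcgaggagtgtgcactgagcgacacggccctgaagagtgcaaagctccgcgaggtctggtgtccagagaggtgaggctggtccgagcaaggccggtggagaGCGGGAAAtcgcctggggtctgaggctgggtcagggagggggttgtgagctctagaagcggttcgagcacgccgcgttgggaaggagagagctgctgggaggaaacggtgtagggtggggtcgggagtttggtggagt
Rrm1: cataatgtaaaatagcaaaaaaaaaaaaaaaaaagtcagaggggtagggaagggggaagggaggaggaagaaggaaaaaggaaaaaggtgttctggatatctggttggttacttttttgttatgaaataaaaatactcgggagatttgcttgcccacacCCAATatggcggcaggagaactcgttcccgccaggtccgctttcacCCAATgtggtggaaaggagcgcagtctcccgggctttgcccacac
Top2a: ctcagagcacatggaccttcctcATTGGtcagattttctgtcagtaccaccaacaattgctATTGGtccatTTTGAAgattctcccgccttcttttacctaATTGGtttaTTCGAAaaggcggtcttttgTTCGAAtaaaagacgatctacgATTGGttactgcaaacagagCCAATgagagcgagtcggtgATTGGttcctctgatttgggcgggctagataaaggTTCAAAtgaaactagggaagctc
Cdk1: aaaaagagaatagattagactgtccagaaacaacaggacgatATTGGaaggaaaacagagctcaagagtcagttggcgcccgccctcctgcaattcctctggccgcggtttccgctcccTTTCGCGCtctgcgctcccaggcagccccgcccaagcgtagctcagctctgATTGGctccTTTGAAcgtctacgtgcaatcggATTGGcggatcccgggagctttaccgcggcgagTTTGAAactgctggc
Cdc20: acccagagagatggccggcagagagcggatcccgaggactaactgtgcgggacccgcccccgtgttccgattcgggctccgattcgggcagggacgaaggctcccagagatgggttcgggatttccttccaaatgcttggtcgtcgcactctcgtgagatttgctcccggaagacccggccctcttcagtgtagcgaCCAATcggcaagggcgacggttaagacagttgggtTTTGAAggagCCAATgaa
*Mcm5* and *Cdc6*, both with log2 fold changes below 0, and *Cdk1*, with one above 0, held E2F letters, and the 2 E2F matches of *Mcm5* overlapped. *Rrm1* held CCAAT letters alone. *Top2a*, *Cdk1* and *Cdc20* each held CHR and CCAAT letters, while *Top2a* and *Cdk1* had log2 fold changes above 0 and *Cdc20* one below 0. Over all members, the median log2 fold change was -0.05 for the 7 with E2F letters and 0.16 for the 29 without, and 0.04 for the 10 with CHR letters and 0.08 for the 26 without. With and without CCAAT it was 0.00 (24 genes) and 0.21 (12 genes). These values describe matches of letters, which are not binding sites.

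In the S phase list, 11 of 20 genes had a log2 fold change above 0 and 9 below, and no gene passed an adjusted or an unadjusted p of 0.05 from limma. Both IEL arrays lay above both SPL arrays for 4 genes (24.6% of all genes) and below both for 6 (24.5% of all genes). The median was 0.19 on slide 1 and -0.002 on slide 2. 

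*Rrm1* encodes the large subunit of ribonucleotide reductase, which makes deoxyribonucleotides (chromosome 7, from 109617223 to 109617283). Its level was 3.20 and 1.84 in IEL replicates 1 and 2 and 1.46 and 1.28 in SPL replicates 1 and 2. The groups did not overlap, but IEL replicate 2 was nearer to the SPL arrays than to IEL replicate 1. The log2 fold change was 1.15 (standard error 0.52, limma adjusted p 0.634). It came to 1.92 within slide 1 and 0.38 within slide 2, and to 1.83 without IEL replicate 2. *Tyms* encodes thymidylate synthase, which makes the thymidine building block of DNA (chromosome 5, from 30387605 to 30387664). It had levels of 1.17 and 0.83 against 0.49 and 0.19, also without overlap, and a log2 fold change of 0.66 (standard error 0.27). The partner subunit gene *Rrm2* had levels of -1.92 and -2.27 against -2.21 and -2.76. Here the groups overlapped, with a log2 fold change of 0.39 (standard error 0.31). The 4 levels of *Rrm1* and of *Tyms* fell in the order of the summed epithelial markers, as for 8 of 42 members and 13.2% of genes. The reverse order was found for 7 members and 14% of genes. The part of epithelial RNA in the differences of *Rrm1* and *Tyms* was not tested.

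*Cdk2*, the kinase that starts S phase (chromosome 10, from 128140817 to 128140876), had levels of -3.62 and -4.75 in CD8αβ+ IELs against -5.18 and -4.96 in CD8αβ+ SPLs. Both IEL values were higher, with a log2 fold change of 0.89 (standard error 0.45). A second probe of *Cdk2*, which entered the test through the SPL arrays alone and was well above background on neither IEL array, gave 0.01 (standard error 0.31), and normexp background correction, which models signal and background on each array and moved the median of all probes to -0.38, turned the first to -0.91. The direction of the brighter probe thus depended on the background correction. Without IEL replicate 2, the brighter probe had 1.46. Its cyclin partners *Ccne1* and *Ccne2* had log2 fold changes of 0.18 and 0.50, with groups that overlapped.

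*E2f2*, a transcription factor that in T cells restrains as well as drives division (chromosome 4, from 135750562 to 135750621), had the lowest log2 fold change of the 42. Its level was -1.24 in IEL replicate 1 and 1.13 in IEL replicate 2, against 1.50 and 1.09 in SPL replicates 1 and 2. A single array was thus apart from the other 3, and IEL replicate 2 lay between the SPL arrays. The log2 fold change was -1.35 with a standard error of 0.84, the highest among the S phase genes, and its values were -2.33 on slide 1 and -0.37 on slide 2. Without IEL replicate 2 it was -2.53. *E2f2* is strongly transcribed in erythroid precursors as well, and the summed level of erythroid markers was lowest in the same array (1.19, against 75.9 or more in the other 3). The part of erythroid RNA in this difference was not tested. Its relative *E2f1* had levels of -2.61 and -3.57 against -3.64 and -3.52 and a log2 fold change of 0.49 (standard error 0.40). The second *E2f1* probe gave 0.62 (standard error 0.28), without overlap of the groups.

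*Cdc6* and *Cdt1* encode the proteins that load the helicase onto replication origins. *Cdc6* (chromosome 11, from 98782573 to 98782632) had levels of -4.87 and -3.84 in CD8αβ+ IELs against -3.76 and -3.23 in CD8αβ+ SPLs. Both IEL arrays were lower, by 1.65 on slide 1 and by 0.08 on slide 2, and the log2 fold change was -0.86 (standard error 0.45). Without IEL replicate 2 it was -1.38, and with normexp fitted without spots far below their local background it was 0.04. *Cdt1* (chromosome 8, from 125096893 to 125096952) had levels of 3.94 and 4.03 against 4.13 and 4.86, again without overlap, and a log2 fold change of -0.51 (standard error 0.33).

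The 6 genes of the MCM2-7 helicase, which unwinds DNA at the fork, had log2 fold changes of -0.41 (*Mcm2*), -0.41 (*Mcm3*), -0.003 (*Mcm4*), -0.34 (*Mcm5*), -0.05 (*Mcm6*) and -0.30 (*Mcm7*). All 6 were at or below 0, but with normexp background correction 5 of them turned above 0, from 0.04 to 0.43. For *Mcm2*, *Mcm3*, *Mcm5* and *Mcm7* both IEL arrays lay below both SPL arrays (4 of 6, against 24.5% of genes). For *Mcm4* and *Mcm6* the groups overlapped, and the slides gave opposite signs. *Mcm2*, for example, had levels of 1.09 and 1.39 against 1.66 and 1.64 (chromosome 6, from 88833619 to 88833678), and *Mcm5*, with E2F letters in the promoter shown, had 1.75 and 2.17 against 2.30 and 2.30 (chromosome 8, from 77651350 to 77651410). None of the 6 passed the test, and their 95% intervals ran from -1.13 to 0.66. *Pcna*, the clamp that holds DNA polymerase on its template, had levels of 5.59 and 4.90 against 4.72 and 5.05 and a log2 fold change of 0.36 (standard error 0.34). The S phase genes outside the 6 with the largest differences had log2 fold changes between -0.41 (*Mcm2*) and 0.50 (*Ccne2*).

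**Figure D3:**
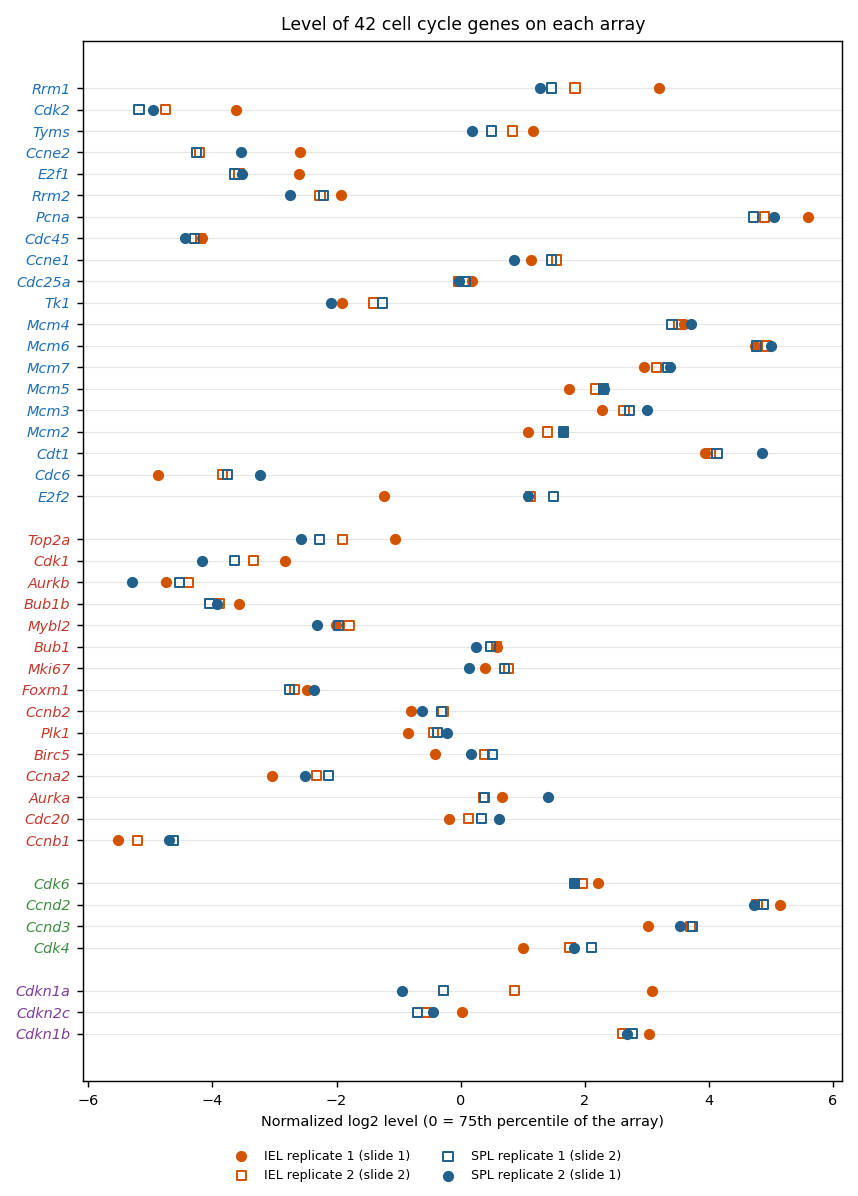
Normalized log2 level of each member on each array, where 0 is the 75th percentile of the array. Rows are ordered within S phase (blue names), mitosis (red), G1 (green) and inhibitor (purple) genes by their mean difference, circles are slide 1 and squares slide 2, and IEL arrays are orange and SPL arrays blue. IEL replicate 1 (filled orange) lies outside the range of the other 3 arrays for 34 of 42 members, as for 77.8% of genes, and levels of different rows are not comparable.

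In the mitosis list, 7 of 15 genes had a log2 fold change above 0 and 8 below, no gene passed an adjusted p of 0.05 from limma, and 1 (*Ccnb1*) passed an unadjusted one. Both IEL arrays lay above both SPL arrays for 4 genes (24.6% of all genes) and below both for 3 (24.5% of all genes). The median was -0.11 on slide 1 and 0.07 on slide 2. *Mki67*, which encodes the proliferation marker Ki-67 and is carried by all cycling cells, had levels of 0.39 and 0.77 in CD8αβ+ IELs and 0.70 and 0.13 in CD8αβ+ SPLs (chromosome 7, from 142881591 to 142881650). On this probe the groups overlapped, and the log2 fold change was 0.16 (standard error 0.32, 95% interval -0.70 to 1.03). The second *Mki67* probe gave 0.41 (standard error 0.31), without overlap of the groups and above 0 on both slides.

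*Top2a* and *Cdk1*, whose promoters shown here both hold CHR and CCAAT letters, had the largest differences of the mitosis list. *Top2a*, the topoisomerase that untangles chromosomes (chromosome 11, spanned from 98857244 to 98858058), had levels of -1.06 and -1.91 in CD8αβ+ IELs against -2.28 and -2.58 in CD8αβ+ SPLs. The groups did not overlap, and the log2 fold change was 0.94 (standard error 0.38, adjusted p 0.634 from limma). A second probe gave 0.88, and without IEL replicate 2 the first had 1.36. *Cdk1*, the kinase that drives entry into mitosis (chromosome 10, spanned from 68805423 to 68807832), had levels of -2.83 and -3.33 against -3.65 and -4.17, also without overlap. Its log2 fold change was 0.83 (standard error 0.33), and it was 1.34 on slide 1 and 0.32 on slide 2. With normexp background correction the values turned to -0.20 for *Top2a* and -0.70 for *Cdk1*. Both genes had the order of arrays of the epithelial markers, as did 8 of 42 members and 13.2% of genes, and the reverse order was found for 7 members and 14% of genes.

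The partners and targets of CDK1 did not share that direction. *Ccnb1*, the cyclin B1 gene (chromosome 13, from 101549634 to 101549693), had levels of -5.53 and -5.20 in CD8αβ+ IELs against -4.63 and -4.71 in CD8αβ+ SPLs. It was well above background on 1 of the 2 IEL arrays and on both SPL arrays, and thus entered the test through the group in which it was higher. Its log2 fold change was -0.70 (standard error 0.25, unadjusted p 0.044, adjusted p 0.634 from limma), similar on both slides with -0.82 and -0.58, and it was 0.26 with normexp fitted without spots far below their local background. *Ccna2*, the cyclin A2 gene (chromosome 3, from 36463978 to 36464037), had levels of -3.03 and -2.32 against -2.13 and -2.50, with overlap and a log2 fold change of -0.36 (standard error 0.35). *Ccnb2* had -0.08 (standard error 0.30).

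*Cdc20*, the activator of the ligase that ends mitosis (chromosome 4, from 118105536 to 118105595), had levels of -0.19 and 0.12 in CD8αβ+ IELs against 0.34 and 0.61 in CD8αβ+ SPLs. Both IEL values were below both SPL values, in the opposite order of arrays to *Cdk1*, and the log2 fold change was -0.51 (standard error 0.26). The Aurora kinase genes differed from each other in sign. *Aurka*, which acts at the spindle poles (chromosome 2, from 172181734 to 172181793), had levels of 0.66 and 0.37 against 0.39 and 1.41, and *Aurkb*, which acts at the centromeres (chromosome 11, from 68865037 to 68865096), had levels of -4.75 and -4.38 against -4.54 and -5.30. The groups overlapped for both, with log2 fold changes of -0.38 (standard error 0.43) and 0.35 (standard error 0.36). The other 8 mitosis genes had log2 fold changes between -0.35 (*Birc5*, which encodes survivin) and 0.26 (*Bub1b*, a gene of the spindle checkpoint), including the transcription factor genes *Foxm1* with -0.01 and *Mybl2* with 0.24.

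Further probes of the same genes gave a check of these values. Of 26 further probes, 20 were tested, in 16 genes, and 18 had the sign of the brightest probe. The median difference between the log2 fold changes of 2 probes of a gene was 0.109. *Bub1*, a spindle checkpoint kinase gene, had 0.21 and -0.24, and *Cdc25a*, the gene of a phosphatase that activates CDK2, had 0.05 and -0.03. *Tyms* had 0.66, 0.50 and 0.15 on its 3 probes.

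**Figure D4:**
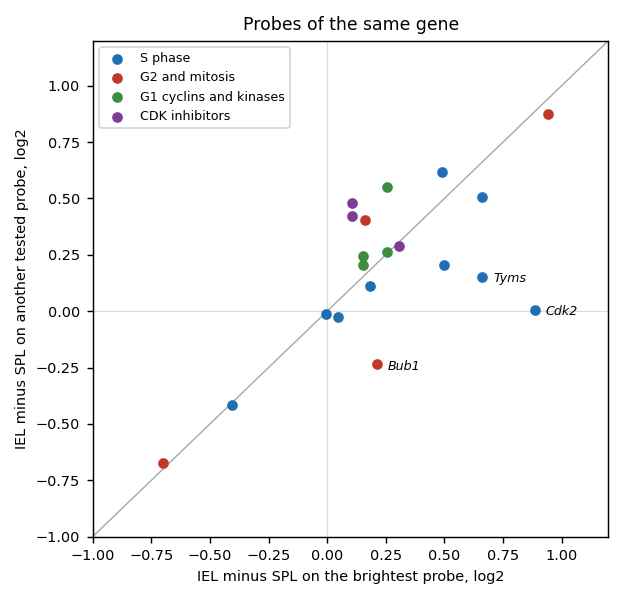
Log2 fold change (IEL minus SPL) of each further tested probe (vertical axis) against that of the brightest probe of the same gene (horizontal axis), for 20 probes in 16 genes, colored by role, with the line of equality. Named points lie more than 0.4 from the brightest probe's value, the median distance is 0.109, and 2 of 20 points have opposite signs.

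Wider lists of cell cycle genes, outside the 42, gave the same lack of a direction. Of 32 other replication genes, 14 had a log2 fold change above 0 and 18 below, with a median of -0.03 and 0 past the threshold. The highest were 1.56 for *Orc1*, a subunit of the complex that marks replication origins, and 0.83 for both *Rpa2* and *Chaf1a*. The lowest were -1.11 for *Pole2*, a subunit of DNA polymerase epsilon, and -0.88 for *Ung*, a repair glycosylase gene. Of 54 other mitosis genes, 51 were tested, with 29 above 0, 22 below and a median of 0.06. The highest were *Cdc25c* with 1.85, well above background on the 2 IEL arrays only, and *Kif15* and *Ncaph* with 1.25 and 1.19, and the lowest were *Kif23* with -1.85, *Kif14* with -1.31, well above background on the 2 SPL arrays only, and *Espl1* with -1.01. None of them passed an adjusted p of 0.05 from limma. At an unadjusted p under 0.05, limma gave 0 replication genes, and 3 mitosis genes above 0 (against 4.89% of genes) and 1 below (against 0.964%). The latter was *Kif14*, and 1 of the former was *Cdc25c*, each of which entered the test through the group in which it was higher.

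Among 32 other regulators of G1 and quiescence, 29 were tested, with 15 above 0, 14 below and a median of 0.03. The highest was *Lin54*, a DNA-binding subunit of the DREAM complex, with levels of 3.62 and 1.38 against 0.47 and -0.02 and a log2 fold change of 2.27. *Cdkn2b*, which encodes p15, had 1.47, and *Rb1*, which encodes the retinoblastoma protein, had 1.35. The lowest was *Myc*, with levels of 0.85 and 2.88 against 3.17 and 3.03 and a log2 fold change of -1.24, followed by *Cdkn2d* with -0.74 and *Ccnd1*, the cyclin D1 gene, with -0.54. None of the 29 passed an adjusted p of 0.05 from limma, and 3 above 0 passed an unadjusted one (against 4.89% of genes). The levels of *Lin54*, *Cdkn2b* and *Rb1* fell in the order of the summed epithelial markers, as for 5 of the 29 and 13.2% of genes. The reverse order was found for 3 of the 29 and 14% of genes. The part of epithelial RNA in these differences was not tested. For *Lin54* and *Myc*, IEL replicate 1 lay outside the range of the other 3 arrays, as for 77.8% of genes.

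Markers of other cells set the same array apart. All 8 tested markers of intestinal epithelium, of 10 listed, had both IEL arrays above both SPL arrays, with medians of 5.60 on slide 1 and 1.28 on slide 2. Their summed level, on the linear scale with 1 at the 75th percentile, was 32.1 and 7.81 in IEL replicates 1 and 2 and 4.27 and 2.30 in SPL replicates 1 and 2. Of 10 markers of crypt stem and progenitor cells, the dividing part of the epithelium, 6 were tested, with a median log2 fold change of 0.05 and summed levels of 0.74, 0.86, 0.91 and 1.00 in the same order. The genes of this list went both ways. *Smoc2* had a log2 fold change of 2.21 (unadjusted p 0.035 from limma), *Axin2*, with the highest share of the sum, had -0.63, and *Tnfrsf19* had -0.99. *Lgr5*, the defining gene of crypt stem cells, did not exceed background clearly on any of the 4 arrays, with a difference of 2.11 on slide 1. *Olfm4* and *Ephb2*, which were not tested, exceeded it in IEL replicate 1 alone, with differences of 4.45 and 2.50 on slide 1. The part of crypt cells in the differences of the cell cycle genes was not tested.

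Erythroid markers had the opposite pattern. Their 8 tested genes, of 10 listed, had summed levels of 1.19 in IEL replicate 1, against 75.9 in IEL replicate 2 and 100.2 and 116.8 in the SPL arrays. B cell markers, 7 of 8 tested, had summed levels of 3.62 against 21.0, 26.9 and 20.7, and their log2 fold changes were all below 0. Myeloid markers, 10 of 12 tested, had 48.5 against 68.9, 83.2 and 88.3, but the sum in IEL replicate 1 was nearly all *Lyz2* (log2 level 5.56). The median difference of the myeloid list was -3.11 on slide 1 and -0.28 on slide 2, and *S100a9*, for example, had levels of -4.17 in IEL replicate 1 and of 4.87, 5.15 and 5.29 in the other arrays. Plasma cell markers, 5 of 6 tested, had 9.65 against 7.96, 8.33 and 7.74, but 3 had log2 fold changes above 0 and 2 below. *Xbp1* had a level of 2.44 in IEL replicate 1 and of 1.14, 0.74 and 1.14 in the other arrays. *Igj* went the other way, with 0.33 against 1.94, 2.33 and 1.74. The part of these cells in the differences of the cell cycle genes was not tested.

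**Figure D5:**
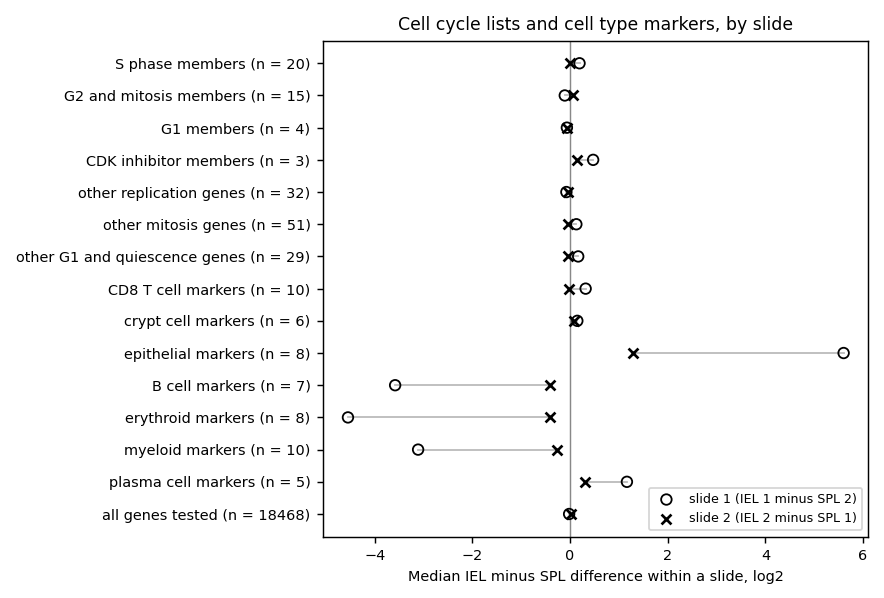
Median difference between the IEL and the SPL array of slide 1 (circles) and of slide 2 (crosses), in log2 units, for the cell cycle lists, the marker lists of cell types and all 18468 genes tested (n, genes tested in each list). The medians of the cell cycle lists run from -0.11 to 0.47 on slide 1, highest for the CDK inhibitors, and from -0.07 to 0.14 on slide 2. Those of the epithelial markers (5.60 and 1.28) and the erythroid markers (-4.55 and -0.41) lie far from 0 on slide 1.

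Leaving out IEL replicate 2 gave the only calls among the members. With 1 IEL array against 2 SPL arrays, whose spread alone then entered the test and is assumed for the lone IEL array as well, 4 members had a log2 fold change above 0 with an adjusted p under 0.05 from limma (*Cdkn1a*, *Rrm1*, *Cdk2* and *Top2a*, against 8.23% of genes) and 2 below 0 (*E2f2* and *Cdc6*, against 11.5% of genes). Their log2 fold changes in this setting are given above with each gene. Of the remaining 36 members, none passed in this setting. With SPL replicate 1, SPL replicate 2 or IEL replicate 1 left out instead, no member passed.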

How the data were processed

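RNA of CD8αβ+ IELs and CD8αβ+ SPLs, 2 samples each, was measured on 4 Agilent 1-color arrays of 45018 spots. The deposited scanner files (Feature Extraction 10.7.3.1 per the file headers and 10.7.1.1 in the submitters' processing notes) give intensities from which the software subtracted the background within the array, and arrays are not normalized to each other. A table of log2 values from the authors served as an alternative. Its arrays share their extremes (0.53 and 18.84) and have medians of 5.57 to 5.59. The study's methods name another chip, PrimeView. The array's probe positions are on mm9.

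Here, the log2 processed intensity was scaled by the 75th percentile of 43379 spots that are not controls (312 to 605 units). Outlier spots, 98 to 179 on an array, were dropped, and repeat spots were averaged. Testing required a probe to be well above background throughout 1 group or both, as 27937 probes were. With the brightest probe per gene this gave 18468 genes. All 42 members were tested, 41 of them well above background on all 4 arrays, and 6 further probes of members were not tested.

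The comparison used R 4.3.3 with the packages limma (version 3.58.1) and data.table (version 1.17.8), without a block, with two-sided tests and Benjamini-Hochberg adjustment over all tested probes at 0.05. The script was tested on simulated data. For arrays, their number limits the precision. Each sample pools several mice, but nothing in the sources used here says that the pools were independent, so p-values measure the spread between these samples. Samples were not paired by replicate number in the fit. Deviations from the group means correlated by -0.025 between arrays of the same number, across 27912 probes. With 2 samples per group, the value between arrays of a slide, 0.025, is the same number with its sign turned. Neither value can decide whether the samples were paired.

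The members and lists were chosen with earlier results of these data known. Values per array are given for the 6 S phase and the 6 mitosis genes with the largest differences among those above background on all arrays, and for all inhibitors and G1 genes; others were added after their values were seen. In the other lists, the 3 highest and the 3 lowest genes are named, except 1 that is not reported here. Alternatives were quantile normalization, another scaling set, normexp background correction (offset 50), the same fitted without spots over 20 units under the local background, the authors' values, other filters, outlier spots kept, the slide or replicate number as a block, each sample left out, the methods' t-test, and the mean of a gene's probes. Figures were drawn with matplotlib 3.10.9 in Python 3.11.15. Sequences of promoters come from RefSeq, and the probe sequences are not shown.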

Additional observations from a re-analysis of the deposited data

How the results depend on the processing

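Under 15 of 16 alternatives no member and no probe passed an adjusted p of 0.05 from limma or, after adjustment, from the methods' t-test, whose unadjusted counts were 470 probes above 0 and 349 below (1295 and 308 with limma). Among the 15, the mean of a gene's probes had no test of its own and could give no call, as its probe tests were those of the main fit. Without one sample at a time, the probes past the threshold ranged from 0 to 2390 above 0 and from 0 to 3065 below, and the members from 0 to 6, with the highest values without IEL replicate 2. The replicate number as a block gave 0 calls in limma (1489 probes above 0 and 644 below at an unadjusted p under 0.05, smallest adjusted p 0.138). The slide as a block also gave 0, so neither block changed a call. Each slide and each replicate number holds 1 array of each group. These blocks therefore could not change the log2 fold change of a member, and its unchanged direction is no check. The median of the S phase genes stayed between -0.02 and 0.12 and that of the mitosis genes between -0.30 and 0.14. Shifts from the main medians of 0.03 and -0.01 were within the replicate standard deviation of each list's median level, not of a difference. Within slides 1 and 2 the medians were 0.19 and -0.002 for S phase and -0.11 and 0.07 for mitosis. The log2 fold change kept its sign for 12 members under all alternatives run, namely *Cdt1*, *Mcm2*, *Pcna*, *Rrm1*, *Tyms*, *E2f2*, *Ccna2*, *Cdc20*, *Plk1*, *Cdk4*, *Cdk6* and *Cdkn1a*. Some of them came close to 0 with a sample left out, such as *Ccna2* with -0.00217 and *Pcna* with 0.0146. The blocks, the t-test and the filters on dim probes cannot change the log2 fold change of a probe measured on all arrays. Normexp background correction, which moved the median of all probes to -0.38, turned 18 members: *Ccne2* to -0.87, *Cdk2* to -0.91, *Cdc45* to -0.88, *Mcm3* to 0.0354, *Mcm4* to 0.43, *Mcm5* to 0.0553, *Mcm6* to 0.31, *Mcm7* to 0.15, *Rrm2* to -0.55, *Tk1* to -0.32, *E2f1* to -0.72, *Top2a* to -0.20, *Cdk1* to -0.70, *Aurkb* to -0.92, *Bub1b* to -0.84, *Mybl2* to -0.38, *Ccnd3* to 0.14 and *Cdkn2c* to -0.00509. Without spots far below their background it moved that median to 0.15 and turned *Cdc6* to 0.0445, *Ccnb1* to 0.26, *Ccnb2* to 0.000385 and *Foxm1* to 0.14. *Tk1* was -0.0304 with quantile normalization and -0.0323 with the authors' values, and *Bub1* was -0.0113 as the mean of its probes. The cause was not tested. With each sample left out in turn, 15 members changed sign, with ranges of -0.12 to 0.49 (*Ccne1*), -0.31 to 1.31 (*Ccne2*), -0.0609 to 0.15 (*Cdc25a*), -0.15 to 0.15 (*Mcm4*), -0.16 to 0.0715 (*Mcm6*), -0.40 to 0.43 (*Tk1*), -0.12 to 0.45 (*Mki67*), -0.33 to 0.18 (*Ccnb2*), -0.90 to 0.13 (*Aurka*), -0.0287 to 0.73 (*Aurkb*), -0.75 to 0.0509 (*Birc5*), -0.21 to 0.19 (*Foxm1*), -0.0278 to 0.33 (*Ccnd2*), -0.62 to 0.0736 (*Ccnd3*) and -0.11 to 0.32 (*Cdkn1b*). The signal over background limits *Ccnb1*, below the limit on 1 IEL array.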
